A study of Mus musculus with 18 samples.

Results

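The cells described here are 123 cells of 1 droplet single-cell RNA sequencing library (10x Chromium) of untreated mouse glioma, out of 4384 barcodes in all. A barcode was kept with at least 500 unique molecular identifiers (UMIs, 1 per captured RNA molecule), at least 300 genes and at most 20% mitochondrial UMIs, which left 3320 cells. Of these, 548 were myeloid by the genes C1qa, C1qb, C1qc, Tyrobp, Fcer1g and Csf1r, of which at least 3 had to be detected, with a sum of at least 2 UMIs per 1000. A myeloid cell was counted as monocyte-derived, and is called a member below, when its UMI sum of Ccr2, Plac8, Itga4, Ms4a4c and Ly6c2 exceeded that of P2ry12, Tmem119, Cx3cr1, Fcrls and Gpr34. The opposite order made it microglia-like (346 cells), 79 myeloid cells had equal sums, and 2772 cells were not myeloid. Members were 22.4% of the myeloid cells (exact 95% Clopper-Pearson interval 19.02% to 26.2%) and 3.70% of the cells kept. The intervals given here cover counting error only.

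The series compared gliomas with different drivers, and asked how these bear on tumour macrophages and microglia and on inhibition of the CSF1 receptor. All groups used were of strain Boy/J. The 10x and Drop-seq libraries each came from brain tumour tissue driven by HRasV12 and a dominant-negative p53 in untreated mice, and the labels do not say how many tumours entered each. The bulk tumours are labelled Ras, with no p53 allele named, and came from 4 mice given PLX3397, a small molecule that blocks the CSF1 receptor, at 100 mg/kg by daily gavage from day 7 after implantation to moribundity, and from 4 mice given vehicle on that schedule. The vehicle libraries carry the label untreated beside a title that names vehicle. The CD11b+ cells were pulled with magnetic beads from PDGFB-driven tumours of 2 mice given PLX3397 for 3 days from day 14 and of 1 mouse given vehicle. The 2 Ras tumour lines derive from Ras-driven tumours and were grown without serum. Mouse ages are not given, and a p-value below measures the spread between these libraries, which the titles number by mouse for tumours and CD11b+ cells.

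In the mouse, circulating monocytes come from bone marrow and fall into a classical kind, marked by Ly6c2 and Ccr2, and a non-classical kind that patrols vessels. The receptor CCR2 answers to CCL2 and guides classical monocytes out of the marrow and into inflamed or tumour tissue, where integrin α4 (Itga4) helps them cross the vessel wall. There they can mature into macrophages that take on complement C1q and class II antigen presentation, beside the microglia that settled the brain before birth.

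The 10x library held 59300288 UMIs. Members had a median of 10610 UMIs and 2808 genes, against 7409.5 UMIs in microglia-like cells and 9078.5 in the cells that were not myeloid. No barcode string was shared with the Drop-seq library (0 shared barcodes), which does not show whether the libraries came from the same tumour. Scrublet, a doublet caller, marked 0 of 3320 cells, so doublets were not removed. A call of 0 does not show that the members are free of doublets. Bulk depth was about 31175600 to 35806700 counts in the Ras tumours and 26777200 to 30874700 in the CD11b+ libraries.

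Members were chosen by their UMI counts of the rule genes, so the levels of these genes describe the choice and are not a result. The chemokine receptor gene Ccr2 (GRCm38, chromosome 9, 124101950 to 124113557) had 604.9 counts per 1000000 UMIs of its class (CPM) in members, against 7.21 in microglia-like cells and 1.17 in other cells. Plac8 (chromosome 5, 100553725 to 100572245), a gene of blood myeloid cells, had 1351 CPM in members and 2.66 in microglia-like cells. Ms4a4c stood at 342.3 against 37.6, the integrin gene Itga4 at 138.4 against 38.2, and the classical monocyte marker Ly6c2 at 49.7 against 0.19. On the other side, the microglial receptor gene P2ry12 had 14.3 CPM in members and 55.8 in microglia-like cells, the Fc receptor-like gene Fcrls had 27.1 and 687.4, and Cx3cr1, the fractalkine receptor gene, 130.9 and 473.8. The 2 rule sets were not exclusive: 66 members had no UMI of a microglial rule gene and 57 had at least 1.

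The rule rested on few molecules in some cells. A member held 1 to 155 UMIs of the 5 monocyte genes, with a median of 17. In 69 members the sum led by 10 UMIs or more, in 11 by 2 UMIs and in 20 by a single UMI, and 17 of the last had 1 UMI against none. Just outside the threshold were 79 cells with equal sums, of which 71 had no UMI of either set, and 55 microglia-like cells that led by 1 UMI the other way. All 5 monocyte genes were detected in 11 members and only 1 of them in 34.

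**Figure D1:**
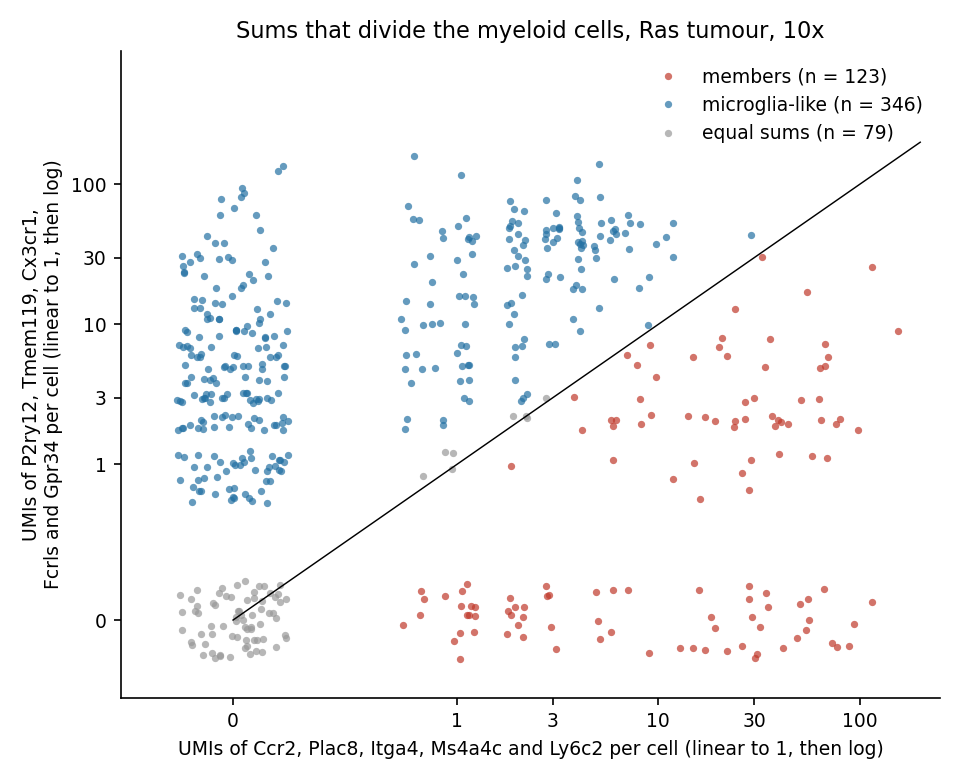
Each point is 1 of the 548 myeloid cells of the 10x library, moved slightly at random so that cells with equal sums can be seen. The horizontal axis is the UMI sum of the 5 monocyte genes and the vertical axis that of the 5 microglial genes, both linear to 1 and logarithmic above. The line marks equal sums, below which lie the 123 members, and many of these sit on or near a microglial sum of 0.

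The name macrophage held for some members only. C1qa, a subunit of the complement starter C1q that tissue macrophages and microglia make, had 1365 CPM in members and 6968 in microglia-like cells, and 18.8 in other cells. The myeloid adaptor gene Tyrobp was at a similar level in both, 2251 in members and 2001 in microglia-like cells, and Csf1r, the receptor gene for CSF1, stood at 374.7 and 549.4. With each cell thinned to 2000 UMIs, any of C1qa, C1qb and C1qc was seen in 41.4% of 111 members (interval 32.2% to 51.2%), in 99.3% of 288 microglia-like cells and in 9.90% of 2070 other cells. That left out 12, 58 and 702 shallower cells. At full depth the shares were 69.1% of members, 99.7% of microglia-like cells and 39.8% of other cells. Free RNA in the droplets can add to each of these shares, and its part was not tested. C1q genes are part of the rule that chose myeloid cells, so these values describe the members.

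Clustering of all 3320 cells placed 89 members (72.4%) in 1 cluster of 114 cells, led by Chil3, Ccr2, Plac8 and Napsa. Another 22 members lay in a cluster of 424 cells that held 335 of the microglia-like cells. That cluster was led by Folr2, Apoc4, Ccl12 and Fcrls, among them the border macrophage gene Folr2 and the microglial rule gene Fcrls. A further 8 members lay in a cluster of 81 cells led by neutrophil genes. The 34 members outside their main cluster were shallower, with a median of 3617 UMIs against 11336 inside it, and had a median of 2 monocyte rule UMIs against 28. The main cluster also held 22 cells that were not counted as myeloid, 21 of them because fewer than 3 of the 6 myeloid genes were detected. Those 22 cells had a median of 10 monocyte rule UMIs.

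Members differed from microglia-like cells first in the genes that blood monocytes carry. Of 6254 genes with at least 20 CPM in either class, 585 (9.35%) were at least 2-fold higher in members and 470 (7.52%) at least 2-fold lower, with the 16 genes of the rule left out. There is 1 library, so no test between the classes was made and these counts have no replicate check. Chil3 (chromosome 3, 106147554 to 106167564), which encodes a chitinase-like secreted protein of mouse monocytes and alternatively activated macrophages, had the highest ratio. It had 1664 CPM in members (exact Poisson 95% interval 1595 to 1734), 1.14 in microglia-like cells (0.418 to 2.48) and 0.88 in other cells. It was detected in 52 of 123 members, and the highest single cell held 11.4% of the members' Chil3 UMIs.

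Genes of the S100 family, which encode small calcium-binding proteins, were among the 25 genes with the highest ratio. S100a4 had 452.9 CPM in members and 5.32 in microglia-like cells, S100a6 had 1299 and 42.3, and S100a11 had 776.5 and 105.0. S100a11 was detected in 88.6% of members, against 48.8% of microglia-like cells and 51.4% of other cells. Napsa (chromosome 7, 44572380 to 44586862), an aspartic protease gene, had 300.95 CPM in members against 4.18 in microglia-like cells and was detected in 76 members. Ltb4r1, a receptor gene for the attractant leukotriene B4, had 118.1 against 2.47. Adgre5, which encodes the adhesion receptor CD97, had 374.7 against 45.0, and Ahnak, a large scaffold protein gene, 228 against 11.01.

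Secreted products formed another share of the 25. Il1b (chromosome 2, 129364570 to 129371139), which encodes the cytokine interleukin-1β, had 2742 CPM in members (2654 to 2833) and 195.3 in microglia-like cells (183.6 to 207.7), a 14.0-fold difference in level. It was detected in 76.4% of members, 28.3% of microglia-like cells and 6.82% of other cells. Clotting factor X (F10) stood at 193.4 in members against 8.16 in microglia-like cells, and haptoglobin (Hp), which binds free haemoglobin, at 153.5 against 6.64. Several ratios rested on few cells. For the eosinophil attractant gene Ccl24, with 683.2 against 15.9, a single member held 41.6% of the UMIs. That share was 40.6% for complement C3 (124.1 against 9.30), 32.0% for the gelatinase gene Mmp9 (240.0 against 20.7) and 31.6% for the protease inhibitor gene Slpi (261.8 against 3.23).

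Border macrophages line the vessels and coverings of the brain. Of 9 of their marker genes 6 reached 20 CPM in either class, and of these 0 were at least 2-fold higher in members and 5 lower. Of the 5, 2 reached 20 CPM in microglia-like cells only, which fixed their direction. Of their marker genes 2 were among the 15 genes lowest in members. Folr2, a folate receptor gene of border macrophages, had 5.27 CPM in members against 139.7 in microglia-like cells, and the mannose receptor gene Mrc1 had 21.1 against 140.7. Gas6, a ligand for the receptors that clear dying cells, had 6.02 against 126.1. Hpgds, which makes prostaglandin D2, had 9.03 against 100.8, and Ptgs1, which encodes the cyclooxygenase upstream of it, 60.2 against 404.9. Cd81, a tetraspanin gene, was detected in 55.3% of members and 93.1% of microglia-like cells, with 234.7 against 1302 CPM. The intervals of members and microglia-like cells did not overlap for any of the genes in these sentences. These genes were chosen by their ratio between the same classes, so this describes the choice and is not a check.

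**Figure D2:**
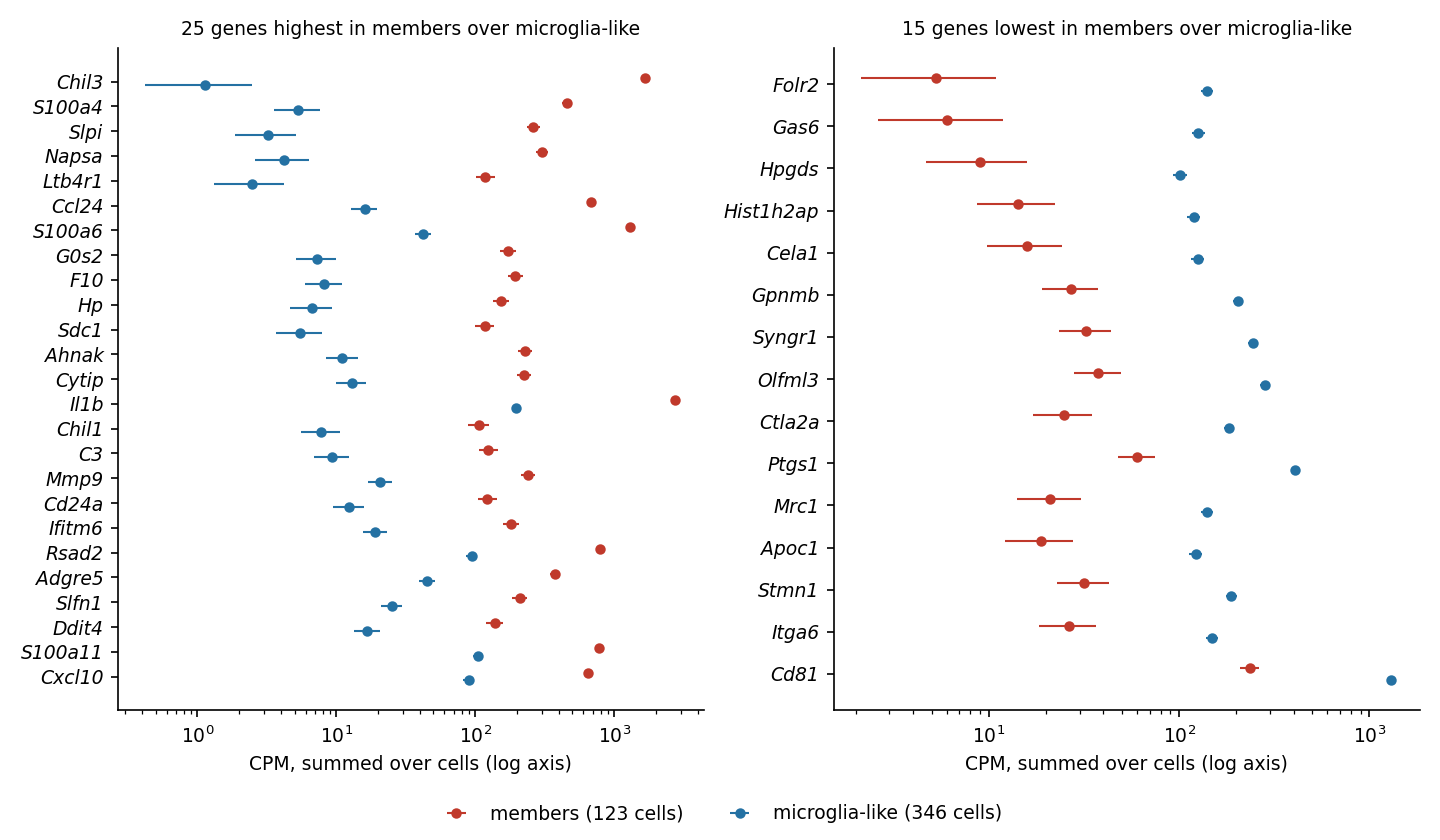
CPM, summed over 123 members and 346 microglia-like cells, are shown on a log axis with exact Poisson 95% intervals for the 25 genes with the highest ratio (left) and the 15 with the lowest (right). The difference was widest for Chil3 on the left, at 1664 against 1.14, and for Folr2 on the right, at 5.27 against 139.7.

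Gene lists group these differences. A gene that reached 20 CPM only in the class where it was higher had to be counted, so the list counts that follow say how many reached 20 CPM in microglia-like cells too. The shares over all genes, 9.35% higher and 7.52% lower, were taken at 20 CPM in either class. No share over all genes is given for those at 20 CPM in microglia-like cells, so counts at that level have no such background. Of 12 classical monocyte genes 11 were compared and 10 were at least 2-fold higher in members, of which 8 reached 20 CPM in members only. Of 10 non-classical genes 8 were compared, and 7 of them reached 20 CPM in members only, which fixed their direction. They include Ace, the angiotensin-converting enzyme gene, with 65.5 against 0.76, and the ribonuclease gene Ear2 with 85.8 against 3.23. Of genes known from glioma macrophages of bone marrow origin, 7 of 12 were higher, all of them at 20 CPM or more in microglia-like cells too, and 1 was lower, the membrane protein gene Ms4a7 with 102 CPM in members and 356 in microglia-like cells. Tgfbi, a matrix protein gene, had 1082 in members and 250.2 in microglia-like cells, the hyaluronan receptor gene Cd44 476.3 and 95.3, and the transcription factor gene Runx3 249.8 and 79.4.

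Receptors came next in the order of recruitment. Of 10 receptor and adhesion genes at 20 CPM or more in microglia-like cells, 2 were higher in members, and 5 others reached that level in members only, including Cxcr4, the receptor gene for CXCL12, with 85.8 CPM in members against 18.4 in microglia-like cells. Fpr2, a formyl peptide receptor gene, had 45.1 against 3.04. Of 7 growth factor receptor genes compared, 3 were higher, all at 20 CPM or more in microglia-like cells: Ifngr1, for interferon γ, with 413.8 against 131.6, Csf2rb, the shared chain for GM-CSF and interleukin-3, with 304.7 against 142.9, and Csf3r, for G-CSF, with 58.7 against 24.1. Among transcription factors 9 of 23 were higher and 2 lower, and 8 of the 9 were at 20 CPM or more in microglia-like cells. Cebpb, which drives monocyte and emergency granulocyte genes, had 2988 against 890.1, and Nr4a1, which non-classical monocytes need, 334.1 against 82.2. Bhlhe41, a microglial factor, had 12.04 against 75.4.

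Effector genes differed in both directions. Of 9 inflammatory mediators at 20 CPM or more in microglia-like cells, 6 were higher in members, among them Il1rn, the interleukin-1 receptor antagonist gene, at 337.8 CPM in members and 58.3 in microglia-like cells. Chemokines were divided, with 7 of 19 higher and 5 lower, of which 4 and 2 passed the minimum only through the class where they were higher. Cxcl3, a neutrophil attractant gene, had 230.2 in members against 5.51 in microglia-like cells, while Ppbp had 0 UMIs in members (upper limit 2.78 CPM by the exact Poisson interval) against 30.2. Of 13 matrix and protease genes at 20 CPM or more in microglia-like cells 7 were higher in members, with the anti-angiogenic matrix gene Thbs1 at 1845 against 320.6. Of 16 hypoxia and glycolysis genes 5 were higher and 0 lower, and Vegfa, the vessel growth factor gene, had 377.7 against 99.1. Of genes at 20 CPM or more in microglia-like cells, those of alternative activation were higher for 4 of 8, and Fc receptor and lectin genes for 4 of 12, with the fungal and necrosis sensor gene Clec4e at 178 against 52.6.

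Class II genes, which present antigen to helper T cells, were higher for 4 of the 7 that had 20 CPM or more in microglia-like cells, and 3 others reached that level in members only. H2-Aa, an α chain gene, had 1518 CPM in members and 268.6 in microglia-like cells, and a single member held 20.1% of those UMIs. By cell the picture differed. At 2000 UMIs per cell, any of H2-Aa, H2-Ab1 and H2-Eb1 was seen in 34.2% of members (interval 25.5% to 43.8%), 33.3% of microglia-like cells (27.9% to 39.1%) and 6.96% of other cells. At full depth the shares were 52.8% of members, 55.5% of microglia-like cells and 21.8% of other cells. Of the 38 members with class II at 2000 UMIs, 17 also had C1q, while all 96 such microglia-like cells did. Neither was seen in 39.6% of members, against 0.694% of microglia-like cells.

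Lipid handling and division genes lay on the other side. Of 17 genes of lipid handling and disease-associated macrophages compared, 0 were higher in members and 8 lower, 1 of which reached 20 CPM in microglia-like cells only. Apoe, the lipid carrier gene, had 11836 CPM in members against 49411 in microglia-like cells, and the lysosomal protease gene Ctsd 1081 against 3959. Of 17 cell cycle genes compared 14 were lower, but 11 of these reached 20 CPM in microglia-like cells only, with the topoisomerase gene Top2a at 15.8 against 94.9. Of 12 homeostatic microglia genes compared 7 were lower and 1 higher, and 2 of the 7 reached 20 CPM in microglia-like cells only.

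Markers of other cell types moved with the members too, and their part in the values above was not tested. The neutrophil list, of whose 11 genes 7 were compared and 5 reached 20 CPM in members only, had a sum of 986.4 CPM in members, 76.3 in microglia-like cells and 405.1 in other cells. Its members' values per cell ran to 67.8 UMIs per 1000 around a median of 0.0419, and 13 members exceeded 2 per 1000. The defining gene S100a8 had 143.0 against 1.52 and was seen in 8.13% of members. The type 2 dendritic cell list, of whose 8 genes 4 were compared and 3 reached 20 CPM in members only, had a sum of 294.9 against 31.5, and 4 members exceeded 2 per 1000. Ccl17, of that list, was seen in 4.07% of members, and 1 cell held 64.7% of its UMIs. The tumour and glial list went the other way, at 538.7 in members, 1122 in microglia-like cells and 6360 in other cells, with 9 members above 2 per 1000. The T cell list summed to 27.8 CPM in members, 13.7 in microglia-like cells and 8.62 in other cells, and the NK cell list to 27.8, 1.71 and 4.51. Per member the NK cell list ran to 7.69 UMIs per 1000 around a median of 0. In the clustering of all cells, 2 members lay in a cluster of 17 cells led by Trbc1, Nkg7 and Cd3g. Mast cell markers had 0 UMIs in members. Hras, the gene mutated in the driver, had 60.2 CPM in members, 76.3 in microglia-like cells and 136.8 in other cells. A count per gene does not separate HRasV12 from unmutated Hras.

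Members fell into 4 sub-clusters by Leiden clustering, each named here by its leading gene, the gene with the highest ratio to the other members among those detected in at least 30% of its cells. The Pf4 sub-cluster had 43 cells (35.0% of members), the Id1 sub-cluster 35 (28.5%), the Adgre4 sub-cluster 25 (20.3%) and the Rsad2 sub-cluster 20 (16.3%). The genes of these cells made the clusters, so their values are a description without a test. Resolution 0.8 gave the same number, resolution 0.3 gave 3 and resolution 1.2, added after the data were seen, gave 7.

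The Pf4 sub-cluster had the most C1q of the 4. Its 10 leading genes were Pf4, Hmga2, Maged1, Rtn1, Ptprz1, Cd81, C1qa, Creb5, Syt11 and C1qc. C1qa had 2441 CPM there, 1985 in the Rsad2, 264.1 in the Adgre4 and 174.2 in the Id1 sub-cluster, against 6968 in microglia-like cells. It also held the cells nearest the threshold of the rule: 13 of the 17 members with 1 monocyte UMI against none lay in it, and its median was 5 monocyte rule UMIs, against 26 to 35 in the other sub-clusters. The tumour list stood at 855 CPM in these cells and at 331 to 389 in the other members, and the glial gene Ptprz1 was among the leading genes. Over all members, resolution 1.2 gave 12 cells led by Tcaf1, with Slc1a3, Gria2 and Pdgfra among their 10 leading genes. Their median was 1 monocyte rule UMI, and Pdgfra, of the tumour list, had 538.3 CPM there against 19.5 in the other members. Of its 43 cells, 23 lay in the members' main cluster and 15 in the cluster that held most microglia-like cells.

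The Id1 sub-cluster had the highest sum of the classical monocyte list. Its leading genes included Id1, Slpi, Rgcc, Ptgs2, Ndrg1, Ccl2, Cxcl2, Cd14 and Chil3, and 32 of its 35 cells lay in the main cluster. Ccr2 had 924 CPM there and 314 to 662 in the other members, and Chil3 had 3812, against 620 to 1348. The classical monocyte list reached 14085, the matrix list 13051 and the hypoxia list 10223 CPM, and in microglia-like cells the same lists had 3279, 4646 and 4745. The other sub-clusters had 4206 to 6547, 2530 to 8371 and 3413 to 9258, the last in the Rsad2 sub-cluster. Fn1, Vcan, Thbs1, F13a1 and F10 are on both the classical monocyte and the matrix list, so their UMIs count in both. In the Id1 sub-cluster Thbs1 was at 3951 and Vegfa at 670.3. Per cell, the median of Il1b was 2.55 UMIs per 1000 in the Id1, 2.98 in the Adgre4, 1.85 in the Rsad2 and 0.54 in the Pf4 sub-cluster, against 0 in microglia-like cells.

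The Adgre4 sub-cluster had the highest sum of the non-classical monocyte list. Of its 10 leading genes, 6 were on the non-classical list (Adgre4, Pglyrp1, Ear2, Ace, Treml4 and Spn), beside Hpgd, Ceacam1, Ighm and Adrbk2. That list summed to 2298 CPM in these 25 cells and to 95.1 to 145 in the other members, against 55.2 in microglia-like cells. Ear2 had 394.2 and Napsa 839.5. The sub-cluster also had the highest class II level: the list summed to 24394 CPM, against 3803 to 9312 in the other members. That was 44.4% of the members' class II UMIs, and 9 of its 25 cells held 97.1% of its UMIs of H2-Aa, H2-Ab1 and H2-Eb1. Resolution 1.2 gave 14 members led by Adgre4 and, apart from these, 12 members led by Clec10a, Klrd1 and Cd209a, of which Clec10a and Cd209a are on the type 2 dendritic cell list. The class II genes H2-Aa, H2-Ab1 and H2-DMb2 were among the 10 leading genes of those 12 cells.

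The Rsad2 sub-cluster had the highest sum of the interferon list. It was led by Rsad2, Cmpk2, Ifit3, Ifit2, Ifit1, Cxcl10, Pydc3, Oasl1, Ifit3b and Gbp5, most of which type I interferon switches on in many cells. Rsad2 (chromosome 12, 26442746 to 26456452) encodes viperin, an enzyme that makes a chain-terminating nucleotide against viruses, and had 4234 CPM there, 7.88 to 48.5 in the other members and 94.3 in microglia-like cells. Cxcl10, an attractant gene for activated T cells, had 3230 there, 0 to 143 in the other members and 89.6 in microglia-like cells. The interferon list summed to 18116 in these 20 cells, and to 627 to 1016 in the other members, against 1118 in microglia-like cells. Over all members, 16 of 18 interferon genes compared were at least 2-fold higher, beside 9.35% of all genes compared. Of 15 interferon genes at 20 CPM or more in microglia-like cells, 13 were at least 2-fold higher. Without the 20 cells of this sub-cluster, an alternative chosen after the data were seen, the log2 ratio of members over microglia-like cells was -1.77 for Rsad2, -0.28 for Cxcl10 and -0.59 for Ifit1, in place of 3.07, 2.85 and 2.67. Even inside the sub-cluster the spread was wide, with Rsad2 at 0 to 24.8 UMIs per 1000 per cell around a median of 0.785. The sub-cluster also had the highest neutrophil list sum, 2622, and 4 of its 20 cells lay in the neutrophil cluster. At resolution 1.2, 8 members formed a sub-cluster led by Cxcr2 and other genes, with 2 neutrophil markers among the leading 10.

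**Figure D3:**
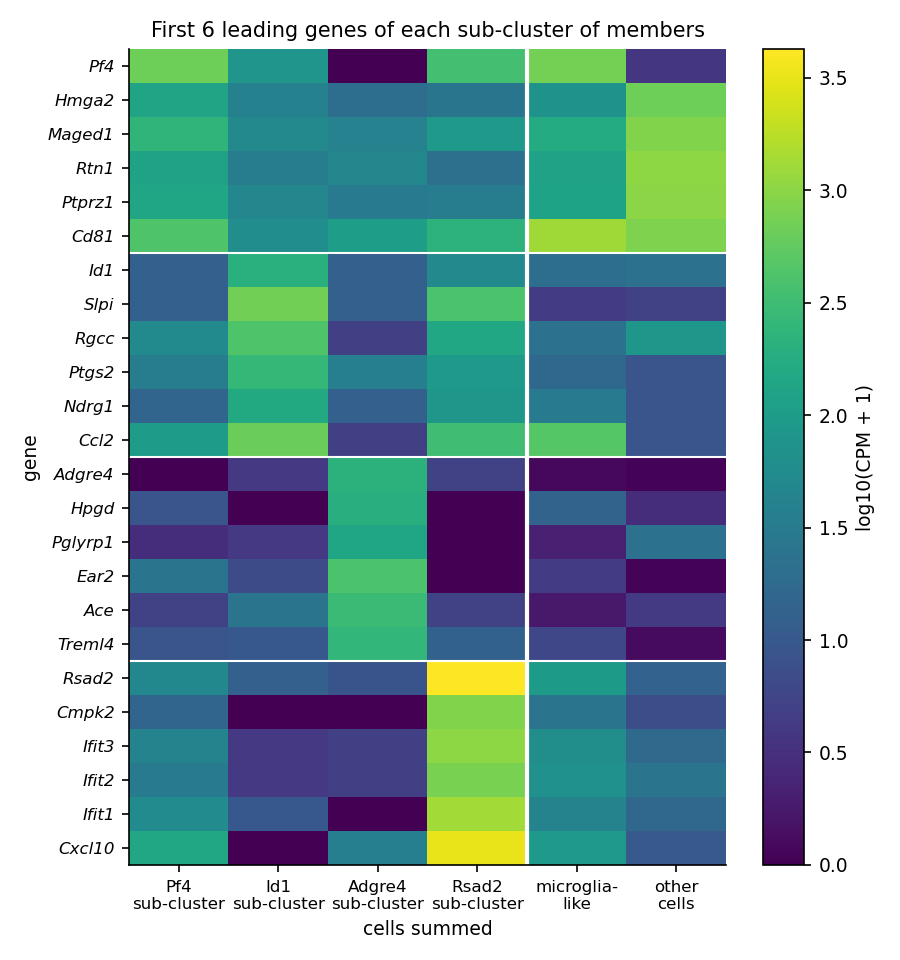
The colour gives log10(CPM + 1), summed over cells, for the first 6 leading genes of each sub-cluster of members (rows) in the 4 sub-clusters, in microglia-like cells and in the cells that were not myeloid (columns). The block of Rsad2, Ifit and Cxcl10 genes is bright in the Rsad2 column, where Rsad2 reached 4234, and Cd81 is brightest in microglia-like cells, at 1302.

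**Figure D4:**
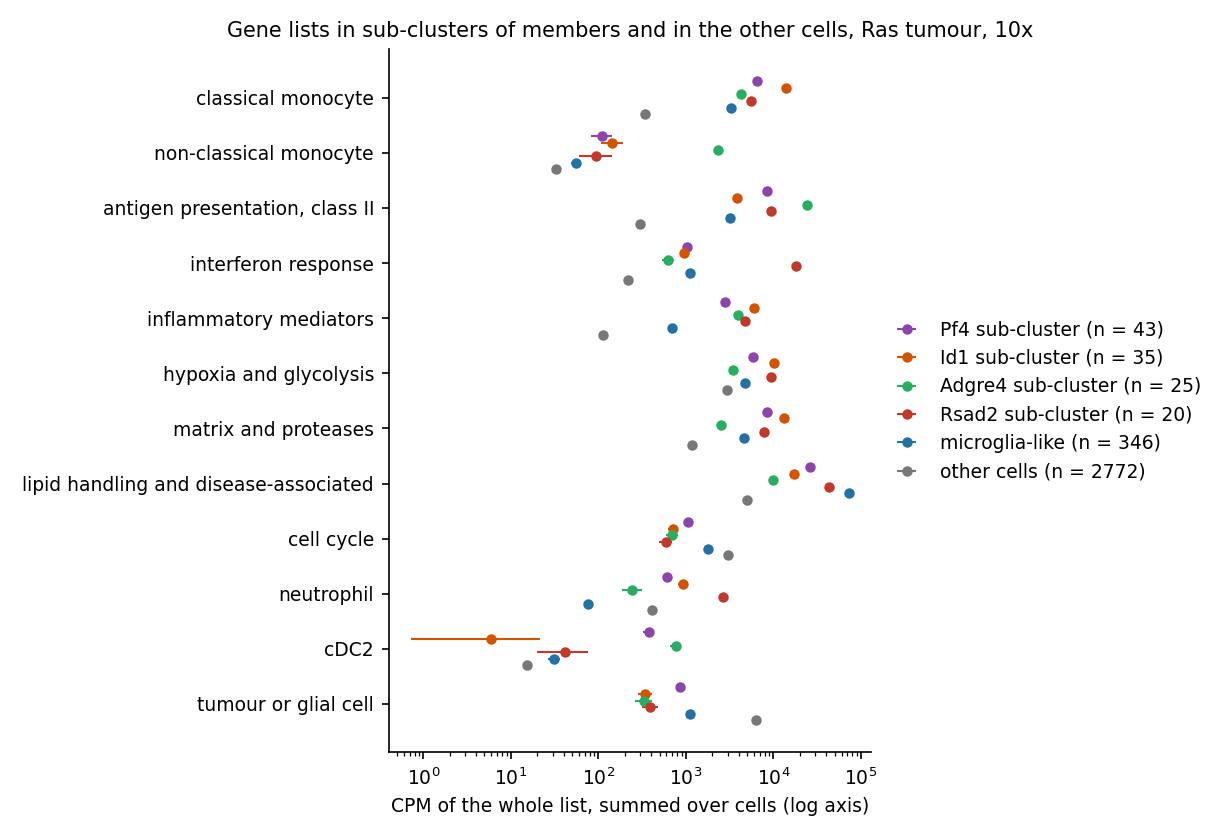
Points are the summed CPM of 12 gene lists in each sub-cluster of members, in microglia-like cells and in other cells, on a log axis, with exact Poisson 95% intervals. The interferon list stands at 18116 in the Rsad2 sub-cluster and the non-classical list at 2298 in the Adgre4 sub-cluster, while the lipid list is highest in microglia-like cells, at 73139.

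The promoters of the leading genes were searched because genes induced by interferon are known to carry a response element with repeated GAAA. The letters searched were GAAA, any 2 bases and GAAA again, on both strands, within 250 bases before the start. A match was found for 6 of 9 leading genes of the Rsad2 sub-cluster with a promoter in the table (66.7%): Rsad2, Ifit3, Ifit1, Cxcl10, Ifit3b and Gbp5. It was found for 0 of 9 in the Pf4, 0 of 5 in the Id1 and 0 of 8 in the Adgre4 sub-cluster, and for 936 of 27025 genes in all (3.46%). Of the genes highest in members, 3 of 19 held it (Cytip, Rsad2 and Cxcl10), and of the lowest, 0 of 11. A match is a description of letters and does not show that a factor binds. The sequences are from RefSeq on build GRCm38.p6, 5′ to 3′ along the gene, from 250 to 51 bases before the start, with the match in capitals. They lie at chr12:26456503-26456702 (minus strand) for Rsad2, chr19:34640639-34640838 (plus) for Ifit1, chr19:34583279-34583478 (plus) for Ifit3 and chr5:92348940-92349139 (minus) for Cxcl10. The 4 are shown as promoters with a match, and Cmpk2, Ifit2 and Oasl1, also leading genes, held none in this window.
Rsad2: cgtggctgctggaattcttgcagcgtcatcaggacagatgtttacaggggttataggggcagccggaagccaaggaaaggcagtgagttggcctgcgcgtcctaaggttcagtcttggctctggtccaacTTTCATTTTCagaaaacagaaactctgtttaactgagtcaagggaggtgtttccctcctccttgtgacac
Ifit1: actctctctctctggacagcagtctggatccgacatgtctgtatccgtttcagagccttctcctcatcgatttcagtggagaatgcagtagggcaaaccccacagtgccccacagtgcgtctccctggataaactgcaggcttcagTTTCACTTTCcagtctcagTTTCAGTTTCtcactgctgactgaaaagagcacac
Ifit3: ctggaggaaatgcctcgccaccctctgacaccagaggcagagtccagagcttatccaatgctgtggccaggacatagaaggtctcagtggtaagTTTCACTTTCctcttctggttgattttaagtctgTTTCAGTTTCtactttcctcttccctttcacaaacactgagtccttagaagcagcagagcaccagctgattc
Cxcl10: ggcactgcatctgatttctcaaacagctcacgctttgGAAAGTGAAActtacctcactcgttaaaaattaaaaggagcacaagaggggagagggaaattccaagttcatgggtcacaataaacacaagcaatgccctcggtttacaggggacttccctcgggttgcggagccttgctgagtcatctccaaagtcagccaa
In Rsad2 the match starts 120 bases before the start and in Cxcl10 213 bases before it, while Ifit1 (104 and 85) and Ifit3 (156 and 122) hold a pair each, all read as the reverse complement except in Cxcl10.

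The Drop-seq library of a Ras tumour, which the choice of members did not use, held few such cells. The same rule found 15 members and 113 microglia-like cells among 5000 barcodes, and the 15 cells held 15017 UMIs in all, with a median of 884. Of the 25 genes highest in 10x members, 11 had 20 CPM or more in microglia-like cells, and 8 of those were higher in the members. No share over all genes is given beside this count, so it is a description and not a repeat of the 10x result. A single UMI is 66.6 CPM in these 15 cells, so most such differences rest on a few molecules, and intervals were apart for 2 genes only. Il1b had 1665 CPM in members (1077 to 2458) and 337.4 in microglia-like cells (255.6 to 437.2), with a UMI in 8 of the 15 cells. Ccl24 had 1532 (971 to 2298) and 254.6 (184.2 to 342.9), and its UMIs came from 2 of the 15 cells. Chil3, Napsa, Slpi, Ltb4r1 and F10 had 0 UMIs in members and in microglia-like cells, and a count of 0 among the 15 cells allows up to 245.6 CPM.

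Bulk Ras tumours show how these genes stood after PLX3397. In bulk tissue, fewer cells of a type and less RNA per cell cannot be told apart. The edgeR quasi-likelihood test with Benjamini-Hochberg adjustment called 0 of 18366 genes at an adjusted p under 0.05 (0%), while 648 had an unadjusted p under 0.05, 572 of them lower, and DESeq2 called 174 (0.816%). Csf1r, the gene of the inhibited receptor, had 173.4, 106.0, 24.6 and 44.3 CPM under PLX3397, against 293.4, 283.0, 270.7 and 154.9 under vehicle. The groups overlapped, and the log2 fold was -1.52 (SE 0.57) with an edgeR adjusted p of 0.9998.

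Of the rule genes, Ccr2 had 11.1, 4.82, 3.42 and 12.7 CPM under PLX3397, against 28.5, 10.9, 22.7 and 15.4 CPM under vehicle. Its lowest vehicle library lay below 2 PLX3397 libraries, and its log2 fold was -1.27 (SE 0.49). Itga4 had 17.5, 22.1, 20.6 and 21.5 CPM under PLX3397, against 53.9, 31.1, 40.4 and 22.1 CPM under vehicle, with a log2 fold of -0.85 (SE 0.26). Ms4a4c was at -1.003, Plac8 at -0.09 and Ly6c2 at 0.23. The direction of Plac8 and Ly6c2 turned with single libraries left out, and none of the 5 passed the edgeR test.

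Of the 25 genes highest in members, 12 had a log2 fold above 0 and 13 below, with a median of -0.15 beside 0.00149 over all genes tested, and edgeR called 0. Their directions differed. Chil3 had 34.8, 21.3, 11.97 and 27.003 CPM under PLX3397, against 15.4, 6.68, 7.73 and 4.32 CPM under vehicle. Its fold was positive (1.48, SE 0.45), with 1 PLX3397 library inside the vehicle range. Napsa had 3.77, 3.14, 1.42 and 2.59 CPM under PLX3397, against 6.70, 4.34, 9.17 and 13.7 CPM under vehicle. Every PLX3397 library lay below every vehicle library, a pattern found for 2.09% of all genes. Its log2 fold was -1.64 (SE 0.43, edgeR adjusted p = 0.629, DESeq2 adjusted p = 0.0272). Slpi, also of the Id1 sub-cluster, had a log2 fold of 1.79 (SE 0.52) with groups that overlapped. Mmp9 ranged from 11.5 to 20.8 CPM under PLX3397, while vehicle libraries had 18.2, 14.5, 188.2 and 535.2 CPM, so its log2 fold of -3.65 (SE 1.12) rested on 2 vehicle libraries.

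Class II genes, highest in the Adgre4 sub-cluster, had the lowest median of the function lists. All 12 had a log2 fold below 0 (median -2.47), and edgeR called 0 of them. H2-Aa had 54.5, 19.9, 8.52 and 28.1 CPM under PLX3397, against 226.0, 69.6, 207.0 and 217.6 CPM under vehicle. In this gene and 4 others of the list every PLX3397 library was below every vehicle library, a pattern found for 2.09% of all genes tested. The log2 fold of H2-Aa was -2.70 (SE 0.60), with an adjusted p of 0.443 by edgeR and 0.00101 by DESeq2. Ear2, of the same sub-cluster, was at most 0.947 CPM under PLX3397 and at least 1.03 under vehicle (log2 fold -2.17, SE 0.68, edgeR adjusted p = 0.812). In the same libraries the median log2 fold was -1.54 for the 5 microglial rule genes, -1.34 for the 6 myeloid rule genes and -1.82 for 9 border macrophage genes, all of them below 0. Class II genes are also expressed by microglia-like cells, and which cells carried the bulk difference was not tested. For 19 interferon genes the median was 0.14, and for 12 classical monocyte genes it was -0.11. Alternative activation genes had a median of -1.198, and Fc receptor and lectin genes one of -1.39, and edgeR called 0 in each of these lists.

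**Figure D5:**
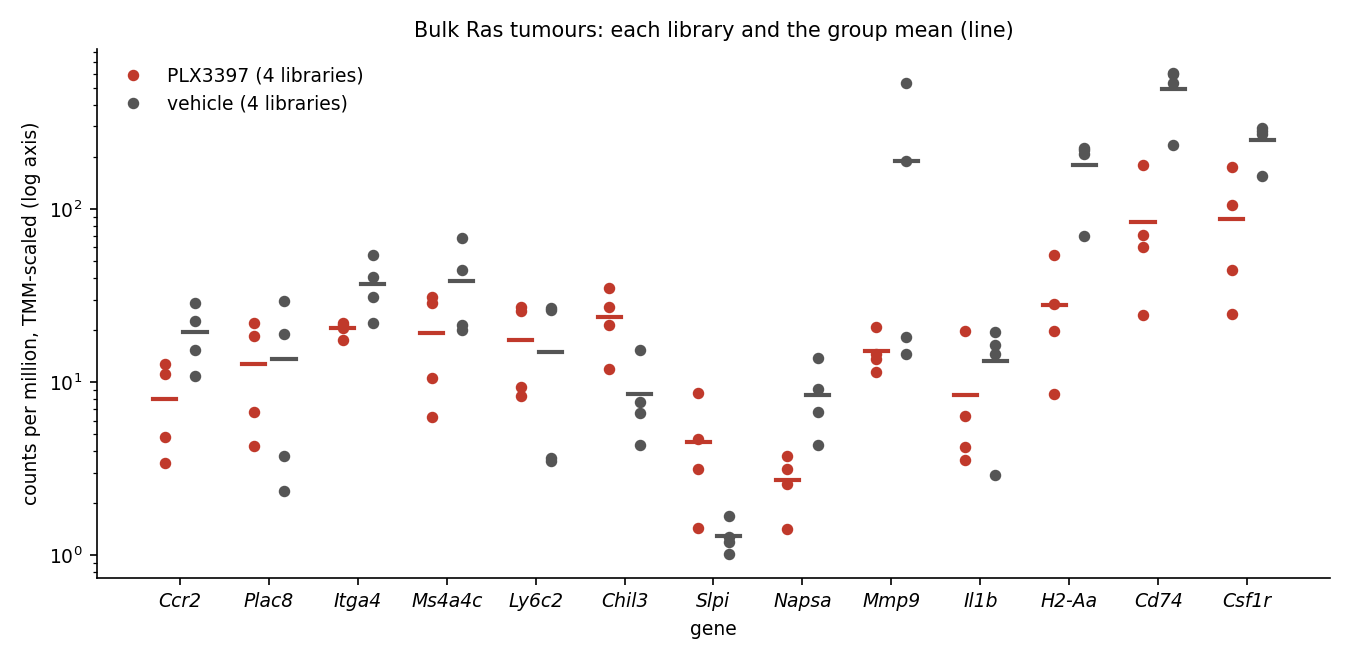
Points are the TMM-scaled CPM of each of 4 PLX3397 and 4 vehicle Ras tumours on a log axis, with the group mean as a line, for the 5 monocyte rule genes, 5 genes high in members, 2 class II genes and Csf1r. Napsa, H2-Aa and Cd74 are the genes shown in which all PLX3397 points lie below all vehicle points, and Chil3, Slpi and Ly6c2 have the higher mean under PLX3397.

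CD11b+ cells of PDGFB tumours after 3 days of PLX3397 gave another view, with 1 vehicle library behind every difference. The edgeR p-values there take the spread from the 2 PLX3397 libraries and assume that the lone vehicle library varies like them, so a rise or fall named below has no replicate check on the vehicle side. EdgeR called 956 of 15052 genes (6.35%), 688 higher (4.57%) and 268 lower (1.78%). Ms4a4c had 144.4 and 136.5 CPM under PLX3397, against 249.1 CPM in the vehicle library, and fell by 0.83 on the log2 scale (SE 0.15, edgeR adjusted p = 0.0491). Ccr2 had 46.0 and 108.8 CPM under PLX3397, against 192.8 CPM, a log2 fold of -1.32 (SE 0.50) that did not pass the edgeR test (adjusted p = 0.169).

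Of the 25 genes highest in members 24 passed the filter on low counts there. Their median log2 fold was 0.62, beside 0.0066 over all genes, and it was 0.0687 without PLX3397 replicate 2. Of the 24, 14 had a log2 fold above 0 and 10 below. By the edgeR fit the chitinase-like gene Chil1 rose by 2.59 on the log2 scale, C3 by 1.35 and the stress gene Ddit4 by 1.01, each against 1 vehicle library. In the 10x library Chil1 and Ddit4 were also found in cells that were not myeloid, at 9.68 and 37.0 CPM. Of the 12 tumour and glial marker genes, 9 were called higher in the same PLX3397 libraries, with a median log2 fold of 2.63, and the part of such cells in these 3 genes was not tested.

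Non-classical monocyte genes were divided, with 6 of 10 log2 folds below 0, 4 genes with both PLX3397 libraries above the vehicle library, and a highest log2 fold of 2.03. Of these edgeR called 3 lower and 0 higher: they fell by 1.98 on the log2 scale for Ear2 (SE 0.23, edgeR adjusted p = 0.0345), by 1.52 for Treml4 (SE 0.23, 0.0425) and by 1.07 for the integrin gene Itgal (SE 0.16, 0.0394). Ear2 had 8.64 and 6.83 CPM under PLX3397, against 30.4 CPM in the vehicle library. Of 12 class II genes, H2-DMa, H2-DMb1 and H2-DMb2, which load peptide, fell by 1.26, 1.65 and 1.70 on the log2 scale (median of the list -1.24), each at an edgeR adjusted p of 0.0348 or less. Of the genes lowest in members, Ptgs1 fell by 0.96 on the log2 scale and Stmn1, a tubulin regulator of dividing cells, by 1.77. Stmn1 is also on the cell cycle list, whose 18 genes all had a log2 fold below 0 (median -1.48) against the lone vehicle library.

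Cultured Ras tumour lines give the level of these genes in tumour cells alone. Of the 25 genes highest in members, 8 were under 1 CPM in both Ras lines, with Chil3, Il1b, Ccl24 and Slfn1 at 0 counts in each, beside Napsa, Ltb4r1, F10 and Hp. Others were present in the lines: Cd24a, a sialic-acid lectin ligand gene, had 139.3 and 177.9 CPM, Ddit4 185.1 and 63.7 CPM, and Ahnak 223.3 and 2.89 CPM. In bulk tumours the parts of tumour cells and of members in such genes cannot be told apart.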

How the data were processed

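The authors deposited raw counts: UMI counts per gene and cell for 10x and Drop-seq, and read counts per gene for the bulk libraries. Build GRCm38 and the tools Cell Ranger, featureCounts 1.6.2, STAR 2.6.1e, FastQC 0.11.7, cutadapt 1.9.1 and Trim Galore 0.4.2 are named, per the submitters' processing notes. Cell Ranger 3.1.0 wrote the 10x matrix, per the file headers. From the deposited counts, UMIs were summed per cell class and given as counts per 1000000 (CPM), and a gene needed 20 CPM in either class and a 2-fold difference to be counted.

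The members and gene lists were chosen with earlier results of these data known. Genes named are the 25 with the highest and the 15 with the lowest ratio (at least 100 CPM in the higher class, detected in at least 10% of its cells, without rule, mitochondrial, ribosomal and predicted genes). To these come up to 5 genes of each of 36 lists by absolute ratio, and the 10 leading genes of each sub-cluster. Sub-clusters used scanpy 1.11.5 (Leiden resolution 0.5, 15 neighbours, 20 components, 2000 variable genes); all cells were clustered on 30 components. Of symbols with more than 1 entry (58 in the 10x matrix), the first was used. Gene positions are from GENCODE on GRCm38.

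Bulk counts were tested with edgeR 4.0.16 (quasi-likelihood, TMM, Benjamini-Hochberg, threshold 0.05) in R 4.3.3, after a filter on low counts. DESeq2 1.42.0, size factors, no filter, a replicate block and leaving out each library were the alternatives. The count tests were tested on simulated data. Left out were 27 entries with dates for names (at most 0.281% of counts in a Ras tumour), 1 unnamed entry of the CD11b+ table and 5 table columns that matched no sample. Some named items are not reported here. Other tools were Python 3.11.15, numpy 2.4.6, scipy 1.17.1, pandas 2.3.3 and matplotlib 3.10.9.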

Additional observations from a re-analysis of the deposited data

Results flagged for a closer look

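Of 62 groups of 4 Ras tumour libraries, over 31 genes, 3 held a library whose gap to its nearest neighbour exceeded Dixon's critical share of the group's range. Chance gives this in about 1 in 20 groups. Csf1r had 154.9 CPM in vehicle replicate 4, against 271 to 293 CPM in the other vehicle libraries. Chil1 had 7.08 CPM in PLX3397 replicate 3, against 43.8 to 50.1 CPM in the others of that group. Ddit4 had 30.9 CPM in PLX3397 replicate 1, against 65.8 to 71.7 CPM in the others.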

How the results depend on the processing

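The 585 genes higher in members became 898 with a mean over cells, 1185 with each cell thinned to 2000 UMIs, 966 with 10 UMIs over both classes and 217 at 100 CPM. The 470 lower genes became 1340 with 10 UMIs, 101 at 100 CPM and 1043 without the Pf4 and Adgre4 sub-clusters. Resolution 1.2, chosen after the data were seen, gave 7 sub-clusters, and at 100 CPM 5 of 5 genes were higher in Drop-seq members, a level that 2 member UMIs reach. Without the Rsad2 sub-cluster, also chosen afterwards, the log2 ratio turned for Rsad2 (-1.77), Cxcl10 (-0.28) and Ifit1 (-0.59). Over the named genes and all alternatives, these 3 ratios turned, 155 moved by more than their counting interval and 402 did not.

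In Ras tumours DESeq2 called 174 genes, no filter gave 1 and each library left out gave 0. The median log2 fold of the 25 genes ran from -0.29 to -0.00407 with 1 library left out. The replicate block gave 0 calls and a median of -0.137. Same-numbered libraries correlated at 0.114, 0.132, -0.42 and 0.45. Libraries of unlike number were not compared, so these values do not settle whether the numbers pair them. Plac8 turned to 0.28 under the block and ran from -0.47 to 0.62 with 1 library left out, and Ly6c2 from -0.10 to 0.68. In CD11b+ cells DESeq2 called 1995 genes and no filter 1907, and the median of the 24 genes ran from 0.0687 without PLX3397 replicate 2 to 0.861 without PLX3397 replicate 1. Leaving out a library there leaves 1 against 1, a value with no test, and the comparison cannot be made without the vehicle library. The causes of these differences were not tested.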

Other observations

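Arg1, which encodes the arginase of alternatively activated macrophages, had 4878 CPM in the Id1, 3970 in the Rsad2, 2582 in the Pf4 and 15.8 in the Adgre4 sub-cluster, against 2236 in microglia-like cells. The fibronectin gene Fn1 had 4385, 2034, 3859 and 327.1 in the same order, against 2852. Both were thus lowest in the sub-cluster led by non-classical monocyte genes, whose 25 cells are a description of 1 library without a test.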
